A study of Mus musculus with 4 samples.

Results

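The genes described here are the cytosolic ribosomal protein genes, measured by RNA sequencing of whole mouse retina. They were taken by name, as every entry of the deposited gene table whose symbol starts with Rpl or Rps, apart from entries with -ps in the name, the Rps6k kinases and Rps19bp1, which is not a subunit of the ribosome. This gave 81 of the 14572 entries, and all 81 passed the expression filter that left 12689 genes for testing. They comprise 46 genes of the large subunit, 31 of the small subunit and 4 paralogs. The study compared wild-type retinas (2 libraries, P1041 and P1033) with retinas labelled PLSCR1 transgenic (2 libraries, TP-1036 and TP-1040). PLSCR1 is a phospholipid scramblase of the plasma membrane. All 4 came from C57BL/6 mice, and all from retinas taken 5 days after acute ocular hypertension of 1 h, a raised-pressure injury used to model glaucoma, so the wild-type controls were injured too. Uninjured retinas were not analysed here. The promoter of the transgene, the number of founder lines and the number of animals per library are not stated in the labels, and the age in the labels is an embryonic one, at odds with an injury followed over days. TP-1036 and TP-1040 were assigned to the transgenic group because their columns are marked case, and they are called transgenic-labelled below.

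The cytosolic ribosome translates nuclear mRNAs and is built from a small subunit, which reads the mRNA, and a large subunit, which joins the amino acids. Most core ribosomal proteins are needed in equal number in the finished particle, and their mRNAs are abundant, short and usually move together. Most of them begin with a 5' terminal oligopyrimidine tract, an uninterrupted run of C and T (U in the RNA) at the cap. Through this tract the mTOR pathway controls their translation, with little need to change the amount of mRNA. In neurons, including retinal ganglion cells, ribosomal proteins and their mRNAs are also found in axons.

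The tract can be seen in the genome around the start of transcription. RefSeq (GRCm38.p6) gave 72 start sites for 61 of the 81 genes. The following windows hold 20 bases on each side of such a start, 5' to 3', with the longest pyrimidine run in capitals. Of the genes shown, Rps27l had 2 windows, and the one with the longest run was taken. They are shown for the genes with the largest (Rplp2, Rps26) and smallest (Rps15a, Rpl38) difference between the groups among those with a window, for Rpl7a, Rpl4 and Rps6, which are taken up below, and for the paralogs Rps27l and Rpl22l1.
Rplp2 (chr7:141447631-141447670, plus strand): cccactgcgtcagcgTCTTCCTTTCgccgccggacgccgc
Rps26 (chr10:128626487-128626526, minus strand): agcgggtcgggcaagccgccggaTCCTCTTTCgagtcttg
Rpl7a (chr2:26910787-26910826, plus strand): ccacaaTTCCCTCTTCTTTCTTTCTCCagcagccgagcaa
Rpl4 (chr9:64173367-64173406, plus strand): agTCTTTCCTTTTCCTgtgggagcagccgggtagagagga
Rps6 (chr4:86857348-86857387, minus strand): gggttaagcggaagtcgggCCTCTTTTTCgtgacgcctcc
Rps27l (chr9:66946066-66946105, plus strand): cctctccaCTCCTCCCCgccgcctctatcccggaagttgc
Rpl22l1 (chr3:28805488-28805527, plus strand): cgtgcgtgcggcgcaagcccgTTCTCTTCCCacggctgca
Rpl38 (chr11:114668560-114668599, plus strand): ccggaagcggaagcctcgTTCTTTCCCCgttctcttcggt
Rps15a (chr7:118116128-118116167, minus strand): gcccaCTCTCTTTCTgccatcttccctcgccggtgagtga
The run in these windows was 21 bases long in Rpl7a, 14 in Rpl4, 10 in Rplp2, Rps6, Rpl22l1, Rpl38 and Rps15a, and 9 in Rps26 and Rps27l. The run spans the annotated start in Rplp2, Rpl7a, Rps6 and Rpl38, lies just after it in Rps26 and Rpl22l1, and ends upstream of it in Rpl4, Rps27l and Rps15a. RefSeq starts need not be the site used most in the retina. A run of at least 8 pyrimidines stood in 43.1% of the 72 windows of ribosomal protein genes and in 15.9% of the 12330 windows of other tested genes, and the median run was 7 against 5 bases.

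Upstream of the start, the windows of 300 bases (250 before and 50 after the start) were searched on both strands for 6 motifs. The pyrimidine motif CTTTCC, which can lie inside the run above, was found in 36 of 72 windows of ribosomal protein genes and in 25.8% of those of other tested genes. The core CCGGAAG of ETS-family factors such as GABP was found in 36.1% against 16.7%, and AAGATGG, the core read by YY1, in 16.7% against 6.91%. GGGCGG, the GC box of SP1, was found in 62.5% against 62.3%, the E-box CACGTG in 11.1% against 9.76% and the TATA box TATAAA in 9.72% against 6.96%. A match of letters is a description and not a shown binding site. The promoters of the genes at both ends of the measured difference are printed from 250 bases before to 20 bases after the start, with every match to the 6 motifs, on either strand, in capitals.
Rplp2 promoter (chr7:141447401-141447670, plus strand): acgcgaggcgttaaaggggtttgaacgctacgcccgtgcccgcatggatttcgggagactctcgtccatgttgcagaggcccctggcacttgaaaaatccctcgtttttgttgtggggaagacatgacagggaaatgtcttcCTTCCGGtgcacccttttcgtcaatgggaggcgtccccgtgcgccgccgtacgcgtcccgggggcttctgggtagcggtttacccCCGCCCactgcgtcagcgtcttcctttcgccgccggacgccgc
Rps15a promoter (chr7:118116128-118116397, minus strand): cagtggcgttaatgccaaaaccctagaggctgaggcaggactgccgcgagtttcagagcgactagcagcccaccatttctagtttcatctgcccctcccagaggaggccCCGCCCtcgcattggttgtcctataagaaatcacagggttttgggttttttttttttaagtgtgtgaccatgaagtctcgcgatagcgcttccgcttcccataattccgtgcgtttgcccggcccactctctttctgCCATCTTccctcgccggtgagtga

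Before the comparison, the libraries themselves stood apart in several ways. Totals ran from 28866589 to 41215649 estimated reads. Retina was shown by the rod genes Gnat1, Pde6a, Sag and Nrl, whose summed level was 22191 and 20880 CPM (a count as its part of the TMM-scaled library total) in wild type and 27009 and 24260 CPM in the transgenic-labelled pair. Plscr1 had 7.98 and 8.36 CPM in wild type and 9.80 and 8.06 CPM in the transgenic-labelled libraries, and the labels do not say whether a transgene would be counted in it. The lens list had 2 of 5 members in the table, Cryaa and Crybb2, and they summed to 2.48 and 0.0606 CPM in wild type, 210 CPM in TP-1036 and 4.66 CPM in TP-1040. The microglia list (5 of 5) summed to 75.5 and 86.7 CPM in wild type against 178 and 111 CPM, and the ganglion cell list (5 of 5) to 608 and 411 against 367 and 325 CPM. The Müller glia list (5 of 5) summed to 3113 and 3042 against 4016 and 3362 CPM, the pigment cell list (5 of 5) to 18.5 and 38.5 against 37.1 and 15.6 CPM and the erythrocyte list (2 of 3) to 26.4 and 29.8 against 51.2 and 17.7 CPM. The part of these in the values that follow was not tested.

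Ribosomal protein mRNA took up a larger part of the reads in 1 of the 2 transgenic-labelled libraries. The 81 genes held 1.11% of all reads in P1041 and 1.04% in P1033, against 1.44% in TP-1036 and 1.09% in TP-1040. TP-1036 thus stood 1.34-fold above the wild-type mean, and TP-1040 lay between the wild-type libraries. By group the share was 1.27% ± 0.249 in the transgenic-labelled and 1.08% ± 0.0490 in the wild-type libraries (SD, n = 2 each). Genes of the large and of the small subunit showed the same order, with Rpl genes at 0.689%, 0.646%, 0.897% and 0.682% and Rps genes at 0.422%, 0.395%, 0.548% and 0.410%, in the same library order. In whole tissue, a change in the cells present and a change in the RNA per cell cannot be told apart.

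**Figure D1:**
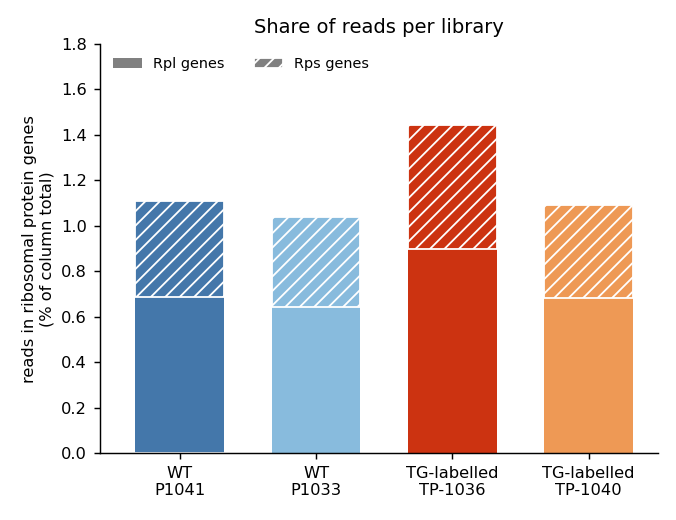
Reads in the ribosomal protein genes as a percent of each column total (bars from 0, Rpl genes plain and Rps genes hatched), 1 bar per library. TP-1036 stands at 1.44%, and the other 3 libraries lie between 1.04% and 1.11%.

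Gene by gene, nearly all members were higher in TP-1036, though genes measured in the same library are not independent repeats. In TP-1036, 80 of the 81 genes lay above both wild-type libraries, where 44% of all tested genes did so. In TP-1040, 28 lay above both (35.5% of all tested genes did), 48 lay between them and 5 lay below both. All 81 were higher in TP-1036 than in TP-1040. The median log2 ratio to the wild-type mean was 0.45 in TP-1036 (range -0.04 to 0.62), a 1.36-fold level, and 0.03 in TP-1040 (range -0.22 to 0.19), while the median over all tested genes was 0.00 in both. The wild-type libraries were themselves ordered, with P1041 above P1033 in 77 of 81 genes and medians of 0.06 and -0.06. These 2 values mirror each other, because both are taken against the mean of the same 2 libraries. Over all tested genes they were -0.004 and 0.004. Around the library medians the genes kept close together, with 65 of 81 within 0.1 (log2) of the median in TP-1036 and 69 of 81 in TP-1040.

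**Figure D2:**
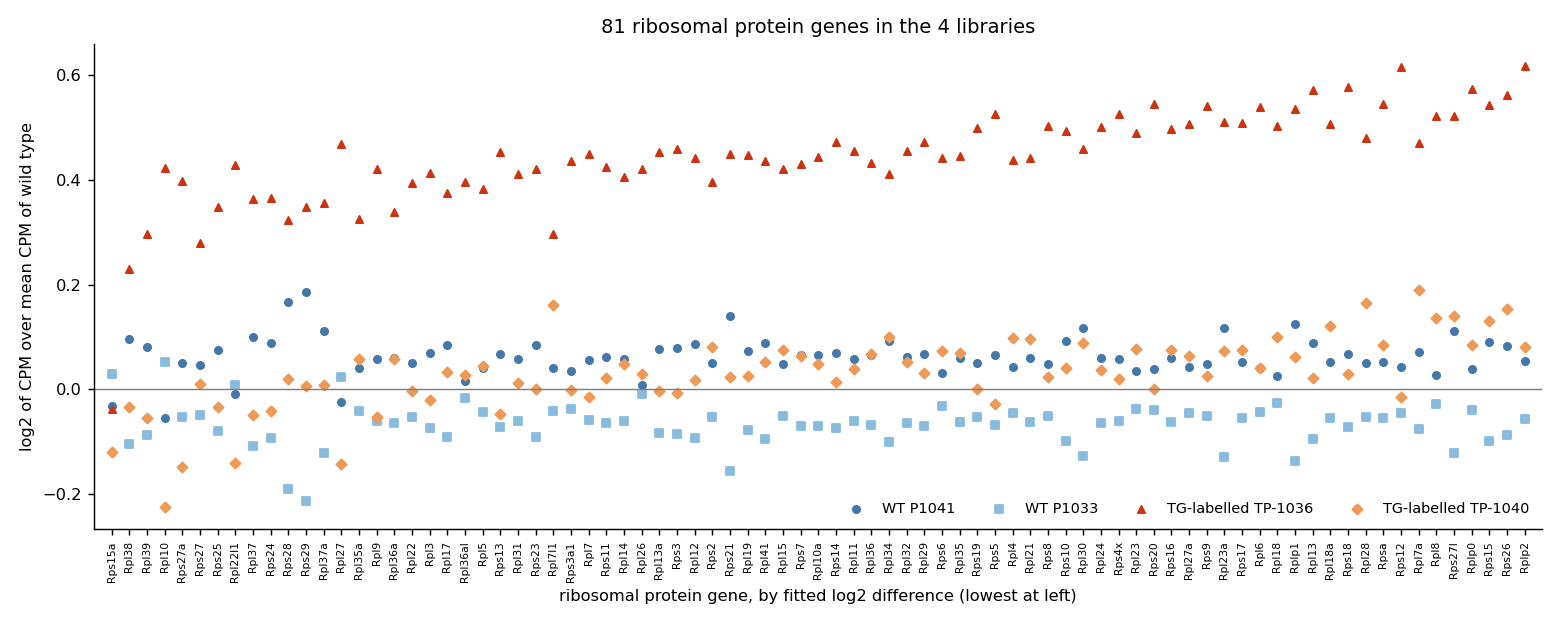
Each of the 81 ribosomal protein genes (x axis, ordered by the fitted difference) in each library (points), as the log2 of its CPM over the mean CPM of the 2 wild-type libraries. TP-1036 lies above every other library for all genes except Rps15a, and TP-1040 lies close to the wild-type points, above both in 28 genes and below both in 5.

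Fitted over both libraries of each group, 80 of the 81 genes had a higher value in the transgenic-labelled group, where 50.4% of all tested genes did. The median log2 difference was 0.26, with a range from -0.08 to 0.37 and an SD over genes of 0.07, against a median of 0.00 and an SD of 0.30 over all tested genes. No single gene passed the test. With edgeR's quasi-likelihood test and Benjamini-Hochberg adjustment, 0 of 81 reached an adjusted p of 0.05 (smallest 0.538), and 0% of all tested genes did. At an unadjusted p of 0.05 the test gave 1 member, Rpl7a, against 8.88% of all tested genes. DESeq2 also called 0 members (0.544% of all genes) and gave 4 at an unadjusted p of 0.05 (9.21% of all genes), and limma called 0 (0.00788% of all genes) and gave 1 (9.31% of all genes). The groups did not overlap for 28 members in the higher direction (23.8% of all tested genes) and for 1 in the lower direction (24.1%). Since TP-1036 is above both wild-type libraries in nearly all members, these 28 are the members in which TP-1040 also lay above both.

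The size rested on TP-1036. Without TP-1036 the median difference was 0.04, and 64 members had a higher and 17 a lower value, where 49.8% of all tested genes were higher. Without TP-1040 the median was 0.45, and edgeR called 72 of the 81 members higher at an adjusted p of 0.05, where 13.6% of all tested genes were called higher. That fit sets TP-1036 alone against wild type and assumes that it varies as the wild-type libraries do. The 9 not called were Rps15a, Rpl38, Rpl39, Rpl7l1, Rps28, Rps29, Rpl22l1, Rpl27 and Rps27l. Without P1041 or P1033 the median was 0.33 and 0.19.

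The largest fitted difference was that of Rplp2, one of the acidic proteins of the stalk, the flexible arm of the large subunit that recruits elongation factors. Rplp2 had 63.8 CPM in P1041 and 59.2 CPM in P1033, against 94.4 CPM in TP-1036 and 65.1 CPM in TP-1040. TP-1036 alone was well above the rest, and TP-1040 passed P1041 by less than the wild-type libraries differed. The difference was 0.37 ± 0.19 (log2, SE), with an adjusted p of 0.538 in edgeR. Rplp0, the scaffold of the stalk, had 196 and 185 CPM in wild type against 284 and 202 CPM, a difference of 0.35 ± 0.18. Rplp1, the partner of Rplp2, had 190 and 158 CPM against 252 and 181 CPM, a difference of 0.32 ± 0.19 in which the groups overlapped. All 3 stalk genes thus stood above the members' median, and their median was 0.57 in TP-1036 but 0.08 in TP-1040.

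Other genes at the upper end came from both subunits. Rps26, which lines the mRNA exit of the small subunit, had 105 and 93.1 CPM in wild type against 146 CPM in TP-1036 and 110 CPM in TP-1040, a difference of 0.37 ± 0.16. Rps15, a protein of the small-subunit head near the decoding site, had 230 and 202 CPM against 315 and 237 CPM, a difference of 0.35 ± 0.17. Rpl8, which lies near the peptidyl transferase centre, had 248 and 239 CPM against 350 and 268 CPM, a difference of 0.34 ± 0.15. In each of these genes the groups lay apart, by a wide margin in TP-1036 and a narrow one in TP-1040. Rpl7a, a large-subunit protein, had 186 and 168 CPM in wild type against 245 and 202 CPM. It had the highest ratio in TP-1040 (0.19, log2) and the smallest unadjusted p of the members (0.049), with a difference of 0.34 ± 0.14 and an adjusted p of 0.538 in edgeR.

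Rps15a, a small-subunit protein gene, was the only member with a fitted value lower in the transgenic-labelled group. Rps15a had 124 CPM in P1041 and 129 CPM in P1033, against 123 CPM in TP-1036 and 116 CPM in TP-1040. Both transgenic-labelled libraries were below both wild-type libraries, though TP-1036 only just, and the difference of -0.08 ± 0.11 (log2, SE) was smaller than its error (adjusted p of 0.752 in edgeR). Rps15a also had the longest annotated principal transcript of the 81, with 5179 bases, while its shortest principal transcript has 640 bases. How its reads were divided between the short and the long form is not given by the table.

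The next lowest values were those of Rpl38, Rpl39, Rpl10, Rps27a and Rps27, of which Rpl10 is taken up below with the pseudogenes. Rpl38, a large-subunit protein known for its part in translating Hox mRNAs, had 56.8 and 49.4 CPM in wild type against 62.3 and 51.9 CPM, a difference of 0.10 ± 0.14. Rpl39, which lies in the wall of the peptide exit tunnel, had 36.0 and 32.1 CPM against 41.8 and 32.8 CPM, a difference of 0.13 ± 0.15. Rps27 had 82.0 and 76.7 CPM against 96.3 and 80.01 CPM, a difference of 0.15 ± 0.13. Rps27a, which is made as a fusion to ubiquitin, had 126 and 117 CPM against 160 CPM in TP-1036 and 110 CPM in TP-1040, a difference of 0.15 ± 0.19. In Rpl38, Rpl39 and Rps27 TP-1040 lay between the wild-type libraries, and in Rps27a it was below both.

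By place and role, the stalk genes had the highest median difference, 0.35, and the paralogs the lowest, 0.23. The 46 large-subunit genes had a median difference of 0.26 with all 46 higher, and the 31 small-subunit genes a median of 0.26 with 30 higher and 1 lower. Their medians in TP-1036 were 0.44 and 0.46, and those in TP-1040 were 0.05 and 0.02. The 8 proteins of the exit tunnel, through which the new protein leaves (Rpl4, Rpl17, Rpl39, Rpl19, Rpl23a, Rpl26, Rpl31 and Rpl35), had a median of 0.25. The 8 along the mRNA path of the small subunit (Rps2, Rps3, Rps23, Rps15, Rpsa, Rps26, Rps28 and Rps14) had a median of 0.25, as did the 18 genes whose human counterparts are mutated in Diamond-Blackfan anaemia, a failure of red cell production. Rpl5 and Rpl11, which enter the large subunit together with a small rRNA and can bind the p53 regulator Mdm2, stood at 0.22 ± 0.15 and 0.26 ± 0.16. Rpl5 had 197 and 186 CPM in wild type against 250 and 198 CPM, and Rpl11 had 123 and 113 CPM against 162 and 121 CPM. Rps6, the substrate of the S6 kinases downstream of mTOR, had 263 and 252 CPM against 350 and 271 CPM, a difference of 0.27 ± 0.15. Groups overlapped for Rpl11 and lay narrowly apart for Rpl5 and Rps6.

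Paralogs are second copies that replace or resemble a core protein, often in some tissues only. Of the 10 paralogs on the list 4 were in the table, and the other 6 were not analysed here. Rps27l, a p53-responsive copy of Rps27, had 8.44 and 7.18 CPM in wild type against 11.2 and 8.60 CPM, a difference of 0.34 ± 0.19. Rpl7l1, which acts in ribosome assembly, had 41.7 and 39.4 CPM against 49.8 and 45.3 CPM, a difference of 0.23 ± 0.12 in which both transgenic-labelled libraries stood clear of wild type. Rpl36al had 22.4 and 21.9 CPM against 29.1 and 22.6 CPM, a difference of 0.22 ± 0.15. Rpl22l1, whose level is known to be held down by Rpl22, had 7.81 and 7.91 CPM in wild type against 10.6 and 7.13 CPM, a difference of 0.17 ± 0.22 with overlapping groups. Its counterpart Rpl22 had 94.9 and 88.3 CPM against 120 and 91.4 CPM, a difference of 0.21 ± 0.16.

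For some members the reads were shared with other entries. The estimated counts were whole numbers in all 4 libraries for 55 of the 81 genes, and their median difference was 0.26, against 0.25 for the other 26. The table has 3 entries named as pseudogenes of a member, and these held most of the reads of the pair. Rpl10-ps3 took 71.4% and 67.8% of the reads of Rpl10 and Rpl10-ps3 together in P1041 and P1033, and 71.7% and 75.4% in TP-1036 and TP-1040. Rps12-ps3 took 89.5%, 90.1%, 89.3% and 90.6% in the same order, and Rpl27-ps3 took 92.8%, 92.2%, 92.5% and 93.1%. The levels of Rpl10, Rps12 and Rpl27 are therefore uncertain. Rpl10, which completes the large subunit late in its assembly, had 39.7 and 42.7 CPM in wild type against 55.3 CPM in TP-1036 and 35.3 CPM in TP-1040, a difference of 0.14 ± 0.21. Rps12 had 11.3 and 10.6 CPM against 16.8 and 10.9 CPM, a difference of 0.34 ± 0.22. Rpl27 had 5.51 and 5.70 CPM against 7.76 and 5.07 CPM, a difference of 0.19 ± 0.25. With the pseudogene reads added to the parent gene, Rpl10 stood at 0.32, Rps12 at 0.34 and Rpl27 at 0.25, and the median of the 81 was 0.26. Rpl10 is thus among the lowest members only when its pseudogene's reads are counted apart.

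Levels between genes were compared per length, as CPM per 1000 bases of the shortest principal transcript of each gene (GENCODE M21). The highest were Rps15 at 492 ± 96.9 (SD over the 4 libraries), Rplp1 at 391 ± 80.2, Rpl41 at 370 ± 60.6, Rps14 at 370 ± 66.1 and Rpl23a at 339 ± 65.5 CPM per 1000 bases. Their order is not resolved beyond this spread. The lowest were Rpl27 at 9.79 ± 1.95, Rpl22l1 at 15.1 ± 2.76, Rps27l at 17.8 ± 3.40, Rps20 at 20.1 ± 4.16 and Rps12 at 25.1 ± 5.99 CPM per 1000 bases. Rpl22l1 and Rps27l are paralogs, Rpl27 and Rps12 share reads with the pseudogene entries above, and Rps20 was scaled by its only principal length of 3706 bases, so its level per length may be understated. Rps20 had 68.7 and 65.1 CPM in wild type against 97.6 and 67.0 CPM, a difference of 0.30 ± 0.19. By reads alone, Rpl4, a large protein of the exit tunnel wall, was the most abundant member, with 412 and 388 CPM in wild type against 542 and 428 CPM.

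The members are short, with a median principal transcript of 886 bases against 3072 bases over all tested genes, and in TP-1036 short transcripts in general stood higher. Among other coding genes the median log2 ratio to wild type in TP-1036 was 0.33 for the 610 of up to 1000 bases, 0.23 for the 2380 of up to 2000, 0.04 for the 4959 of up to 4000 and -0.19 for the 4184 above that. In TP-1040 the same classes stood at 0.02, 0.01, 0.00 and -0.01. A smaller length trend was also seen between the wild-type libraries. The shortest and longest classes stood at 0.05 and -0.02 in P1041, and at -0.05 and 0.02 in P1033. The members' medians in TP-1036 were 0.45 for the 51 of up to 1000 bases, 0.45 for the 24 of up to 2000 bases and 0.39 for the 5 of up to 4000 bases. Rps15a, the 1 member above 4000 bases, stood at -0.04. Within each of these classes, set by the longest principal transcript, the members' median thus stood above that of the other coding genes. In the class of up to 4000 bases, Rpl18, Rpl7l1 and Rpl22 also have shorter principal transcripts, of 679, 1310 and 474 bases. Their place in that class therefore depends on the transcript chosen, and the length offsets below used the same lengths. Across other coding genes Spearman's rho between length and the ratio in TP-1036 was -0.49 (n = 12133). These genes share the library and are not independent. Across the 81 members rho was 0.02, and 0.18 when the shortest principal transcript was used. When the fit was given offsets for transcript length in each library, the median difference of the members was 0.11, with 74 higher and 7 lower. The 7 were Rpl38, Rps27, Rpl39, Rpl10, Rps27a, Rpl22l1 and Rps15a, with Rps15a at -0.001.

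**Figure D3:**
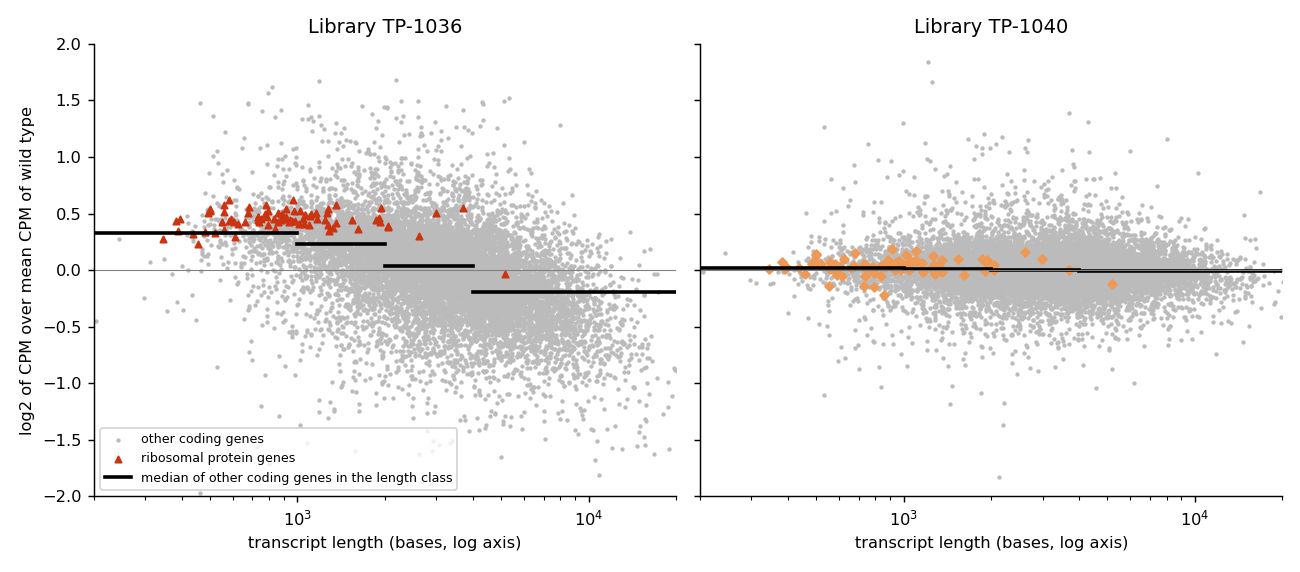
Log2 of CPM over the wild-type mean against transcript length (log axis) in TP-1036 at left and TP-1040 at right, for coding genes (grey), ribosomal protein genes (coloured) and the median of other coding genes in each length class (black bars). In TP-1036 the bars step from 0.33 down to -0.19 and most ribosomal protein genes lie above them. In TP-1040 the bars lie between -0.01 and 0.02. The axes leave out 26 genes on the left and 21 on the right.

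Other lists of the translation machinery also had their higher median in TP-1036. Fau and Rack1, ribosomal proteins named without the prefix, stood close to the members. Fau, made as a fusion to a ubiquitin-like protein, had 87.9 and 74.1 CPM in wild type against 110 and 80.1 CPM, a difference of 0.23 ± 0.18. Rack1, a scaffold on the small subunit, had 179 and 167 CPM against 242 and 181 CPM, a difference of 0.29 ± 0.16. In both TP-1036 was the highest library, and neither passed the test.

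Of 11 genes on the elongation factor list 9 had higher and 2 lower values. The median of the list was 0.35 in TP-1036 but 0.05 in TP-1040. Tpt1 is on this list but is not itself an elongation factor, and its mRNA has a well-known oligopyrimidine start. Tpt1 had 410 and 398 CPM in wild type against 595 and 444 CPM, a difference of 0.36 ± 0.16. Eif5a2, a variant of the factor that relieves stalled ribosomes, went the other way, with 31.5 and 29.0 CPM against 21.2 and 22.8 CPM and a difference of -0.46 ± 0.12. Of 36 initiation factor genes 31 had higher values, the median being 0.23 in TP-1036 but 0.02 in TP-1040. Pabpc1, the poly(A)-binding protein and another oligopyrimidine mRNA, had 381 and 358 CPM against 538 and 443 CPM, a difference of 0.41 ± 0.14 with both transgenic-labelled libraries above wild type. Eif2s2 had 69.8 and 64.6 CPM against 97.3 and 67.8 CPM, a difference of 0.30 ± 0.18. In edgeR 0 genes of either list passed the adjusted threshold, and 1 in each had an unadjusted p under 0.05.

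Lists of genes that make ribosomes or control their use had lower medians than the members, and their genes went both ways. Their transcripts were also longer. The median length was 2499 bases for assembly factors, 2986 for RNA polymerase I and 3855 for the mTOR pathway, against 886 for the members. The part of length in the lower medians was not tested. The SD of the difference over genes was 0.16 for assembly factors, 0.17 for RNA polymerase I and 0.22 for the mTOR pathway, against 0.07 for the members, and the difference between lists was not tested. Of 36 ribosome assembly factors 24 had higher and 12 lower values, the median being 0.04 (TP-1036 0.11, TP-1040 -0.02), with Rpf2 at 0.33 ± 0.15 and Heatr1 at -0.36 ± 0.15. Of 15 genes of RNA polymerase I, which transcribes rRNA, 9 were higher and 6 lower, with a median of 0.07, Polr1d at 0.37 ± 0.14 and Polr1b at -0.28 ± 0.15. Of 23 mTOR pathway genes 15 were higher and 8 lower, with a median of 0.10. Eif4ebp1, the translational repressor that mTOR inactivates, had 2.09 and 2.76 CPM in wild type against 4.07 and 2.82 CPM, a difference of 0.50 ± 0.30. Rictor, a subunit of the second mTOR complex, had 141 and 147 CPM against 76.4 and 131 CPM, a difference of -0.47 ± 0.24. In edgeR 0 genes of these 3 lists passed, with 0, 1 and 0 at an unadjusted p under 0.05. Snhg11, the only snoRNA host gene of the list in the table, had 729 and 788 CPM in wild type against 311 and 496 CPM, a difference of -0.91 ± 0.22. DESeq2 called Snhg11 lower at an adjusted p of 0.05, while edgeR did not, with an adjusted p of 0.538.

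Mitochondrial ribosomal proteins and respiratory chain subunits, 2 further sets of small nuclear-encoded proteins, gave a measure of how far the pattern reaches. Of 78 mitochondrial ribosomal protein genes 67 had higher values, with a median of 0.13 (TP-1036 0.24, TP-1040 0.03), and TP-1036 was above both wild-type libraries in 66. Mrpl54 stood at 0.46 ± 0.16 and Mrps21 at 0.36 ± 0.15. Of 80 oxidative phosphorylation genes 73 had higher values, with a median of 0.19 (TP-1036 0.35, TP-1040 0.00), and TP-1036 was above both wild-type libraries in 74. Cox4i2 stood at 0.35 ± 0.22 and Atp5g2 at 0.34 ± 0.16. The oxidative phosphorylation genes are as short as the members, with a median of 870 bases. In edgeR 0 genes of either set passed, with 1 and 0 at an unadjusted p under 0.05.

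**Figure D4:**
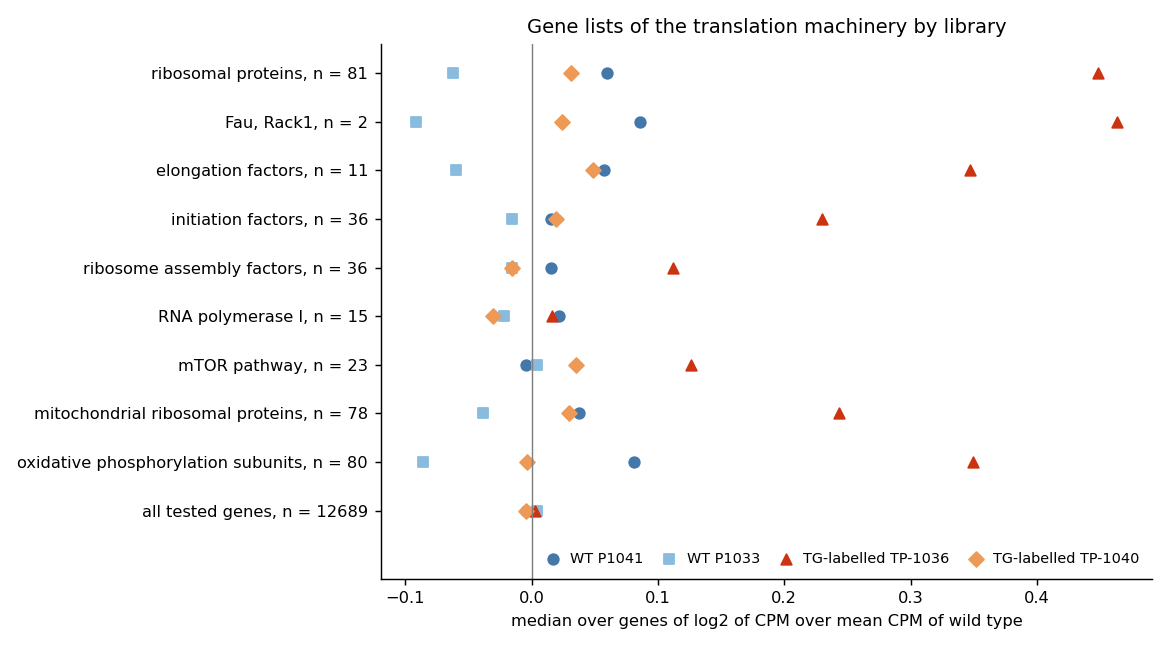
Median over the genes of each list of the log2 of CPM over the wild-type mean (x axis), with 1 point per library. In TP-1036 the ribosomal proteins stand at 0.45, respiratory chain subunits at 0.35 and RNA polymerase I at 0.02, while TP-1040 stays between -0.03 and 0.05 in every list shown.

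Members were also divided by the pyrimidine run at the start. The 30 members with a run of at least 8 bases in a window had a median difference of 0.27, and library medians of 0.44 (TP-1036) and 0.04 (TP-1040). The 31 members with a shorter run had 0.25, with 0.44 and 0.03. The remaining 20 members had no window.

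**Figure D5:**
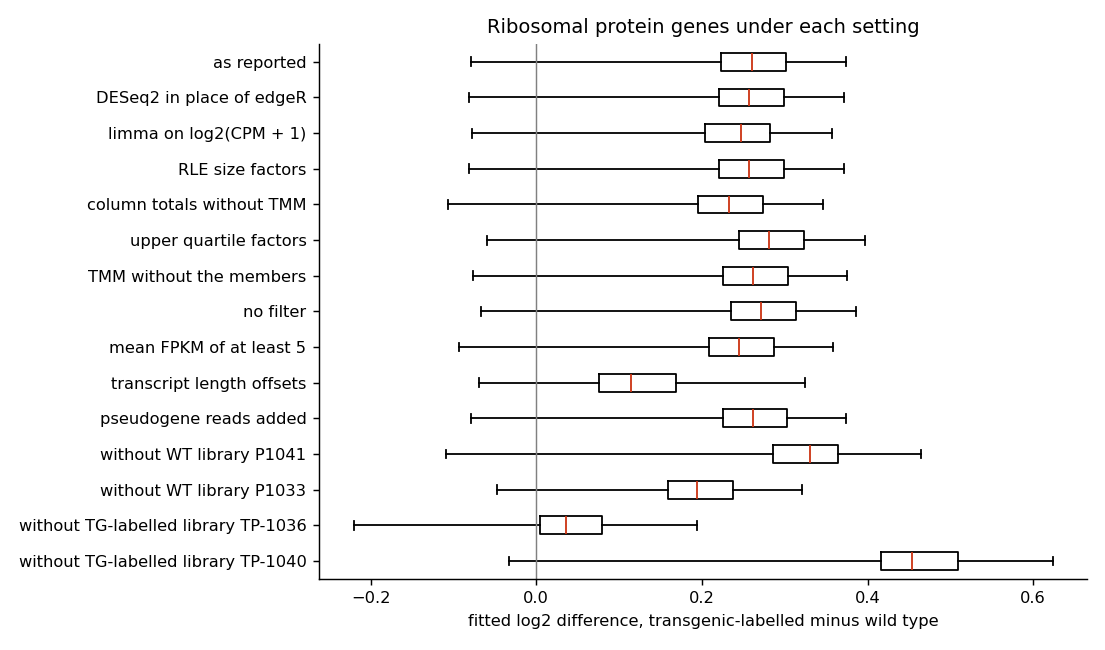
Fitted log2 difference of the ribosomal protein genes under each way of processing (boxes from the lower to the upper quartile with the median in red, whiskers to the lowest and highest gene). The median stays between 0.23 and 0.28 over the choices of test, scaling, filter and pseudogene reads, is 0.11 with length offsets, and moves between 0.04 and 0.45 when 1 library is left out.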

How the data were processed

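Retinal RNA was made into libraries with a TruSeq kit from Illumina, per the labels' protocols. Used here were the 4 columns of estimated counts in the authors' deposited gene table, of which 80.3% to 82.4% were whole numbers, while 4 further columns of per-sample values were not used. Bowtie 0.12.2 and the builds mm8 and mm9 are named in the submitters' processing notes, and the counter, annotation and strand setting were not given in the sources used here. Columns were tied to groups by name, not to single samples.

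Counts were rounded and tested with edgeR 4.0.16 (R 4.3.3, limma 3.58.1; TMM, quasi-likelihood, two-sided, Benjamini-Hochberg at 0.05) over 12689 genes whose mean FPKM reached 1, worked out from the counts and the longest GENCODE M21 transcript (80 entries without one were given the median, 3472.5 bases). DESeq2 1.42.0 and limma on log2(CPM + 1) were alternatives, and each tool was tested on simulated data. The common biological coefficient of variation was 13.4%. SE is the difference divided by the root of F. Length classes, offsets and correlations used the longest principal transcript, unless the shortest is named. The smallest exact permutation p (two-sided) for 2 against 2 is 0.333. Every p-value reflects only how far these libraries differ, which may be technical. Chi-square over degrees of freedom was 11.0 between the wild-type and 59.7 between the transgenic-labelled libraries, so neither pair was a repeat of 1 library.

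The members and lists were chosen with earlier results of these data known. Named are the 6 members with the largest and the 6 with the smallest difference, the 5 highest and 5 lowest per length, the stalk genes, Rpl5, Rpl11, the paralogs, and of each further list the 2 with the largest difference. Rpl4, Rpl7a, Rpl22, Rps6 and the members listed as not called were named after their values were seen. Some genes of the further lists are not reported here. Sequences are from RefSeq (GRCm38.p6).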

Additional observations from a re-analysis of the deposited data

How the results depend on the processing

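The median difference of the 81 genes stayed between 0.23 (column totals without TMM) and 0.28 (upper quartile factors) over the other tests, scalings and filters and with pseudogene reads added, was 0.11 with transcript length offsets, and ran from 0.035 to 0.45 when 1 library was left out. Members with a higher value numbered 80 (79 of 80 tested at a mean FPKM of at least 5) under those choices, 74 with length offsets and from 64 to 80 when 1 library was left out. Restricted to the 55 members with whole counts, an alternative added after seeing the data, the median was 0.26. Members called numbered 0 in every alternative except the fit without TP-1040, so that they ran from 0 to 72 when 1 library was left out. Genes called over all tested genes numbered 0 as reported, 69 with DESeq2, 1 with limma, 1 with upper quartile factors, 1 without the filter and, leaving out 1 wild-type library, 29 (P1041) or 91 (P1033). Leaving out TP-1036 gave 27 called genes, and leaving out TP-1040 gave 3931. The cause was not tested. With mitochondrially encoded genes left out of the total, the share of reads was 1.14% in the wild-type and 1.34% in the transgenic-labelled libraries. That total has fewer reads by construction.

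The sign turned with length offsets for Rpl10 (-0.030), Rpl22l1 (-0.010), Rpl38 (-0.069), Rpl39 (-0.035), Rps27 (-0.035) and Rps27a (-0.013). It also turned without TP-1036 for Rpl10 (-0.22), Rpl22l1 (-0.14), Rpl27 (-0.14), Rpl38 (-0.028), Rpl39 (-0.050), Rps12 (-0.0095) and Rps27a (-0.14). No scaling alternative turned the sign of a named member. No paired analysis was possible because the columns of the table carry none of the replicate numbers of the labels.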
